A study of Mus musculus with 49 samples.

Results

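The genes described here are translation factors and aminoacyl-tRNA synthetases, measured in blood cells of mice injected with oleic acid (OA). Given into a vein, this fatty acid is a standard way to cause acute lung injury in animals. They are all genes whose name on the array begins with Eif1 to Eif6, Eef1 or Eef2, or is a one-letter amino acid code followed by ars or ars2, without the interferon-induced kinase gene Eif2ak2. There are 63 such genes among the 5770 named genes of the array, measured by 88 cDNA clones. Of these genes, 46 have 1 clone and 17 have several, and each gene is represented by its brightest clone. The names of 13 genes were updated through synonyms, so that Eif3s10 of the array, for example, is given as Eif3a and Mars as Mars1.

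The mice were female wild-type C57Bl/6J, 7 weeks old, and all were anaesthetised with xylazine and ketamine and injected into the tail vein. One arm received OA at 1.2 µl/g and the other arm, the control, received physiological serum. PBMC, the mononuclear cells of peripheral blood, were labelled as the tissue at 1, 1.5, 3, 4, 18 and 24 h, with 4, 6, 4, 4, 4 and 4 OA mice and 2, 1, 2, 2, 2 and 2 serum mice in that order. In all 49 nylon arrays were hybridised with the amplified RNA of 37 mice, and the 2 arrays of each of 12 mice were averaged. In the text, early means 1 and 1.5 h, middle means 3 and 4 h, and late means 18 and 24 h. This gives 10 early, 8 middle and 8 late OA mice, and 3, 4 and 4 serum mice.

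Translation begins when eIF2 brings the initiator tRNA to the small ribosomal subunit and the eIF4 factors bring the mRNA by its cap, while eIF3 and eIF1 shape that complex until eIF5 makes eIF2 hydrolyse its GTP. The factor eIF2B reloads eIF2 with GTP, and kinases such as PERK (Eif2ak3) and GCN2 (Eif2ak4) stop this step under stress by phosphorylating the subunit encoded by Eif2s1. During elongation eEF1A delivers the charged tRNA, eEF2 moves the ribosome along, and eIF5A helps it past difficult stretches. The synthetases attach each amino acid to its tRNA, and those with the suffix 2 mostly serve mitochondria. In blood, cells that grow and divide make more of this machinery than resting cells do.

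Stretches of 80 bases upstream of 9 members are shown first, because these members' levels are described below and the stretches show which regulatory letters they share. Promoter sequence from RefSeq (GRCm38.p6) was matched for 49 of the 63 members, and 3 motifs were searched on both strands of the 250 bases before each annotated start. A gene with several starts counted as a holder if any of them had the motif. For Eif5a, which has 6 promoter entries, the first match is shown. The E-box CACGTG, which the MYC family of factors binds, lay in 10 of the 49 members (20.4%), against 6.86% of the 27025 genes with a promoter. Of these, 4 members described below are shown: Eif5a (chr11:69921418-69921497, minus strand), Eef2 (chr10:81176551-81176630, plus strand), Eif4a1 (chr11:69672570-69672649, minus strand) and Eif4g1 (chr16:20672636-20672715, plus strand), with the motif in capitals. Eef2k and Aars hold the next motif as well, and Eef2 and Eif3k the last one.
Eif5a: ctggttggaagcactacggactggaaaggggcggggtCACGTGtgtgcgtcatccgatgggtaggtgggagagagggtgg
Eef2: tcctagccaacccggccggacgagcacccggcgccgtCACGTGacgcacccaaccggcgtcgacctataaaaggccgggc
Eif4a1: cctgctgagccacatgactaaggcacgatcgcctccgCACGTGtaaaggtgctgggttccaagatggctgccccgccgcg
Eif4g1: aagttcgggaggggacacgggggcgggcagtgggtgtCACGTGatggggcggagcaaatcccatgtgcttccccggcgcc

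The amino acid response element TGATGNAA, which ATF4 and its partners bind, lay in 4 of 49 members (8.16%), against 3.91% of all genes. Its holders were Eef2k, the kinase of eEF2, and the synthetases of alanine (Aars, chr8:111033694-111033773, plus strand), glycine (Gars, chr6:55037921-55038000, plus strand) and threonine (Tars, chr15:11399659-11399738, minus strand), shown because the values of these synthetases are given below. In these 3 the capitals mark the element on the opposite strand.
Aars: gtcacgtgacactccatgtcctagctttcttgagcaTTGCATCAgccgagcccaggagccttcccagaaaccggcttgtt
Gars: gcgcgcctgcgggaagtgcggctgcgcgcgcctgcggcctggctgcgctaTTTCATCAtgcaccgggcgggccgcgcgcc
Tars: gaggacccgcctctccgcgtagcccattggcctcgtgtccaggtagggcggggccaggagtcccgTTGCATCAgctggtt

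The letters GCATGCGC, the core of the site of the factor NRF1, lay in 6 of 49 members (12.2%), against 2.56% of all genes. Among them were Eif2s1 (chr12:78861992-78862071, plus strand) and Vars2 (chr17:35667595-35667674, minus strand), both called between late and early OA mice below, while the other 4 holders (Eef1a1, Eef2, Eif3k and Wars2) were not. The Vars2 stretch holds the core more than once. A match says only that these letters are present.
Eif2s1: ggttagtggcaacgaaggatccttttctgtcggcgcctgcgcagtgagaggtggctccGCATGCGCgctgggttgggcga
Vars2: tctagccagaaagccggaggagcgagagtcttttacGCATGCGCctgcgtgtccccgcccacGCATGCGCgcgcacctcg

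Across the series, the median clone signal of an array lay between 83 and 364 in raw units, and the share of clone spots well above the empty spots of the same array ran from 41.8% to 57.9%. The number of arrays limits the precision. Of the 63 members, 19 were well above background on all 49 arrays, 45 on the greater part of them, 18 on fewer, and 5 of these 18 on none (Eif2b5, Eif3f, Hars2, Nars2 and Sars2). No member reached the ceiling of the scanner. Cell markers were checked on the same arrays: 10 of 15 T-cell, 7 of 9 B-cell and 5 of 11 monocyte genes were above background on most arrays, as were 10 of 16 erythroid, 8 of 10 neutrophil and all 5 platelet genes. The monocyte genes Cd14, Cd163 and Itgam were above background on no array, and the haemoglobin gene Hba-a1 was at the scanner's ceiling on all 49, although PBMC should hold few red cells. In such mixed blood samples, fewer cells of a type and less RNA per cell cannot be told apart. The clone of Eif2s3y, a Y-linked gene that female mice lack, was above background on 18 of 49 arrays, and what it bound was not tested.

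A set of 7 mice stood apart from the other 30 on the first principal component over all clones, which held 36.2% of the variance. They were OA mouse 7 at 3 h, OA mice 2 and 3 at 4 h, OA mouse 2 at 18 h, both serum mice at 4 h (1 and 4) and serum mouse 1 at 18 h, so that both arms were represented. Eif5a had a log2 normalised signal of 6.32 to 7.65 in these 7 mice, against 10.82 to 14.19 in the other 30. Eef2 lay between 8.53 and 10.86 in the 7 mice, against 10.67 to 12.09 in the others. Eif4a1, the helicase of the cap-binding complex, lay between 8.15 and 8.78, against 8.92 to 10.35. Not all members were low there: Eif1, which guards the choice of the start codon, lay between 12.84 and 13.59 in the 7 mice, against 11.13 to 12.35. The Eif2s3y clone lay between 7.97 and 9.42 in the 7 mice, against 6.67 to 8.1 in the others. Where a mouse of the 7 had a second array, the arrays were alike, with Eif5a at 7.7 and 7.61 in OA mouse 2 at 18 h and at 7.49 and 7.35 in serum mouse 4 at 4 h. These members are part of the data that set the 7 mice apart, so the ranges are a description, and calls between stages are also given without these mice. The next mice on that component were OA mice 5 and 6 at 4 h, at 6.7 and 6, between the 7 mice (38.2 or more) and the remaining mice (-7.8 or less).

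**Figure D1:**
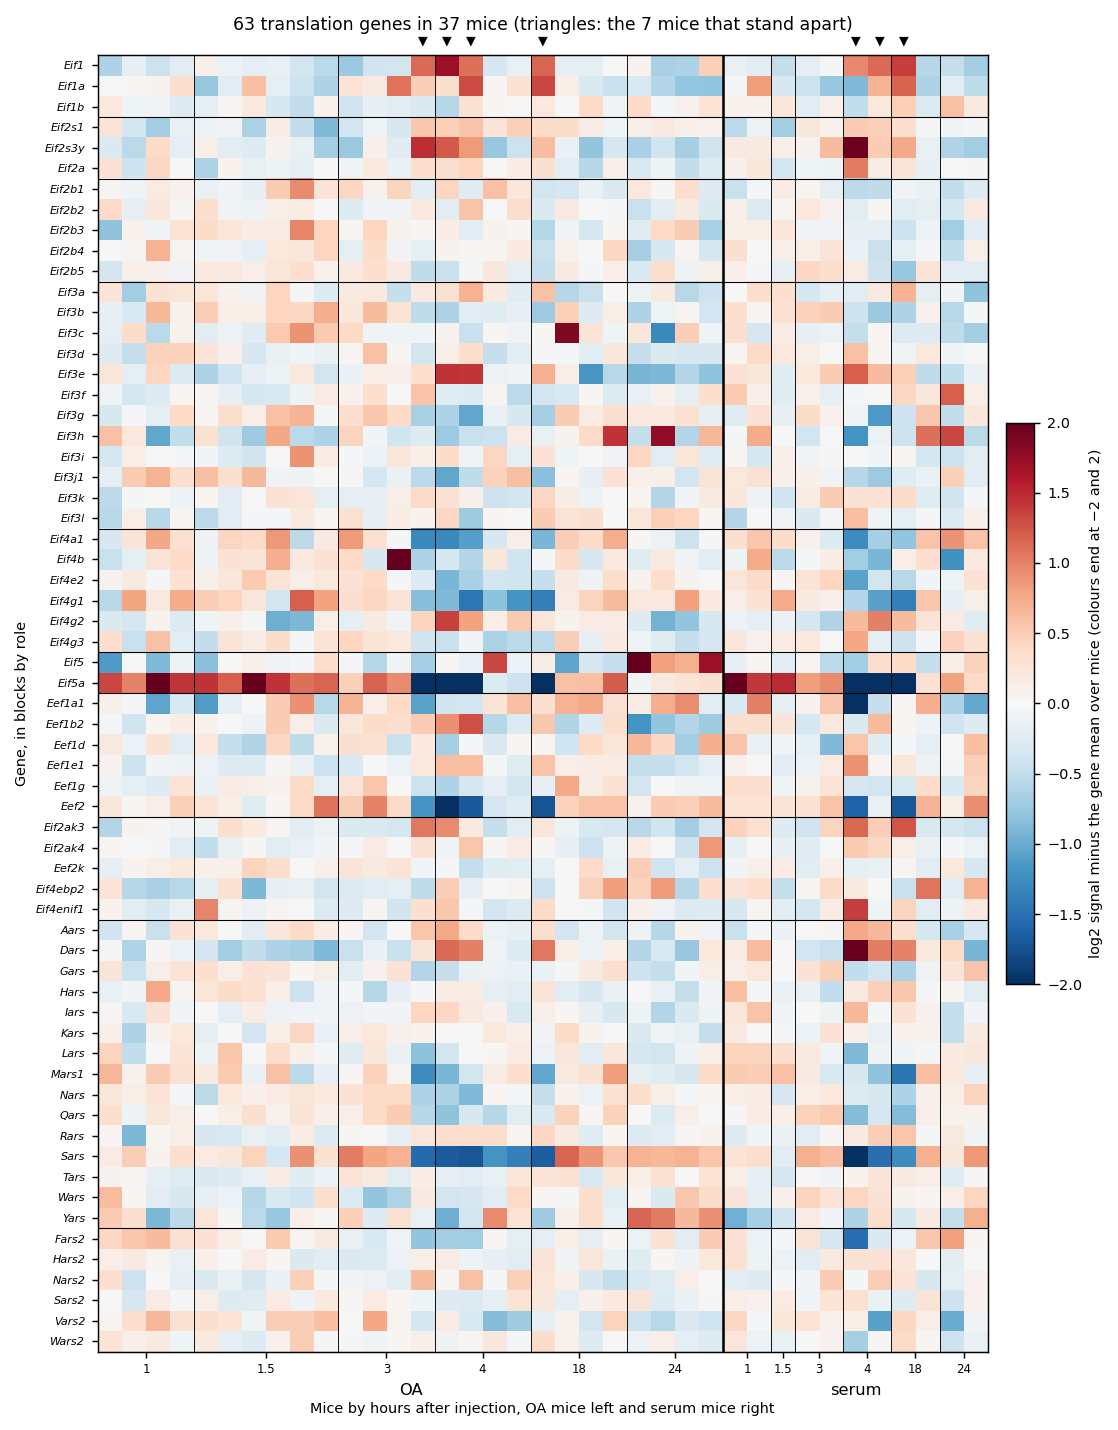
Log2 normalised signal of the 63 members (rows, in blocks by role) minus each gene's mean over mice, in 37 mice (columns), OA mice on the left and serum mice on the right, each by hours after injection; red is above and blue below the mean. Triangles mark the 7 mice that stand apart, in which Eif5a, Eef2 and Eif4a1 are blue and Eif1 is red.

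The first comparison asked how these genes differed between late and early OA mice. Of the 63 members, 2 rose and 1 fell (4.76%), while 8.23% of all 7739 clones passed the same test, 4.35% higher and 3.88% lower. The test was limma with Benjamini-Hochberg adjustment over all clones at 0.05. The share of members called was not above that background. The median member change was -0.08 on the log2 scale, against -0.01 for all clones, and 60 of the 63 members lay between the 5th and 95th percentile of all clones, -0.56 and 0.64. An unadjusted p under 0.05 was found for 11 members (17.5%), against 26.2% of all clones.

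Eif2s1 encodes the alpha subunit of eIF2, on which the stress kinases act. In late OA mice it lay at 7.86, 8.09, 8.3 and 8.31 at 18 h and at 8.02, 8.04, 8.06 and 8.14 at 24 h. In early OA mice it lay at 7.24, 7.55, 7.79 and 8.2 at 1 h and at 7.05, 7.3, 7.44, 7.82, 7.87 and 8.09 at 1.5 h. All 8 late mice were above the early mean, 3 early mice lay within the late range, and the late values were closely spaced. Eif2s1 rose by 0.46 ± 0.14 (SE; 95% interval 0.17 to 0.75), or 1.38-fold, with a limma adjusted p of 0.0395. It was also higher in middle than in early OA mice, by 0.49 ± 0.14 (limma adjusted p = 0.0297). Without the 7 mice that stand apart this was not called (0.35 ± 0.16, limma adjusted p = 0.222). The 4 OA mice at 4 h lay between 8.2 and 8.51, and mice 2 and 3 among them stand apart. At 3 h the OA mice lay at 7.56, 7.62, 7.86 and 8.48, of which only the last, from a mouse that stands apart, was above the early range.

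Eif5 encodes the factor that makes eIF2 hydrolyse its GTP. Its brightest clone lay at 9.73, 10.33, 10.45 and 10.94 in OA mice at 18 h and at 11.5, 11.6, 12.49 and 12.8 at 24 h, against 9.65 to 11.11, with a median of 10.74, in the 10 early OA mice. The 4 mice of 24 h were all above every early mouse, and the 4 of 18 h lay within the early range. Eif5 rose by 0.75 ± 0.24 (1.69-fold; limma adjusted p = 0.0458), and with the mice of 24 h left out the change was -0.11 (limma adjusted p = 0.93). Its other clones moved the same way, by 1.47 ± 0.3 (limma adjusted p = 0.00416) and 1.16 ± 0.32 (limma adjusted p = 0.0249). The clone with 1.47 was also higher in middle than in early OA mice, by 1.31 ± 0.3 (limma adjusted p = 0.00939), which the brightest clone was not (0.28 ± 0.24, limma adjusted p = 0.459).

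Vars2 encodes the valine synthetase of mitochondria. It lay at 7.33, 7.53, 7.77 and 8.14 in OA mice at 18 h and at 7.15, 7.27, 7.3 and 7.41 at 24 h, against 7.61 to 8.36, with a median of 8.03, in early OA mice. Of the late mice, 6 of 8 were below every early mouse. Vars2 fell by 0.56 on the log2 scale (SE 0.18; 1.47-fold lower; limma adjusted p = 0.045). It was well above background on only 3 of 11 late OA arrays, against 13 of 13 early OA arrays, so the late level rests mostly on signals near background.

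**Figure D2:**
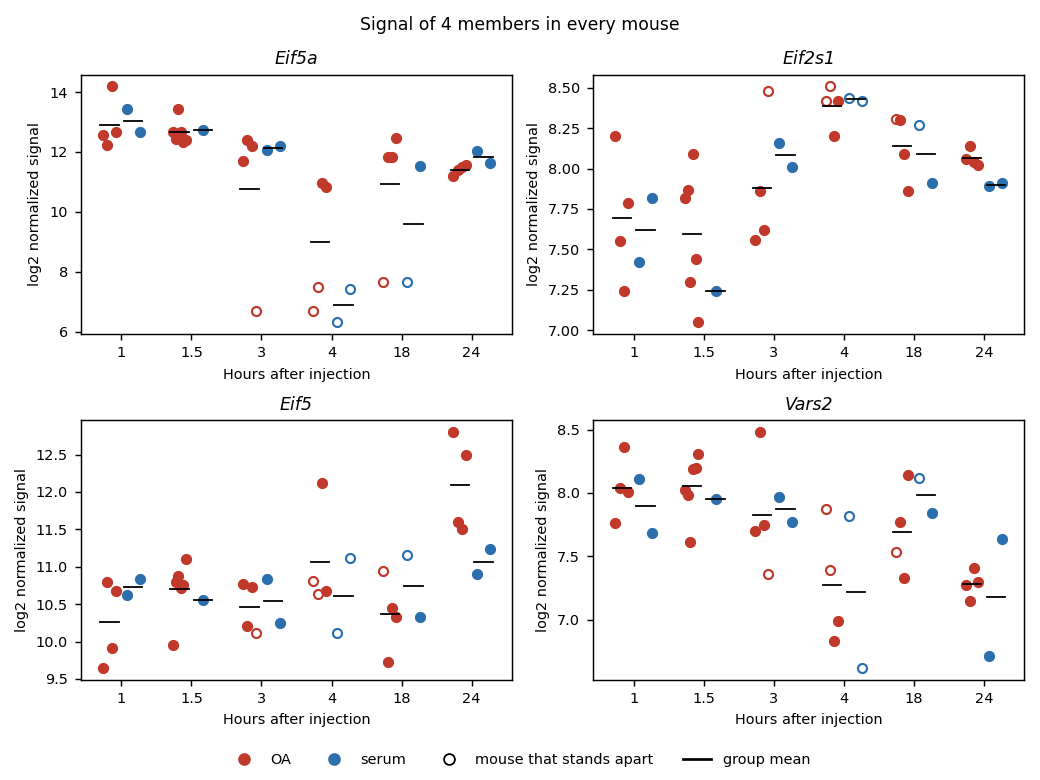
Log2 normalised signal (vertical axes) of Eif5a, Eif2s1, Eif5 and Vars2 in every mouse by hours after injection (horizontal axes), OA left of serum at each time; open points are the 7 mice that stand apart and lines are group means. Eif2s1 is tight and high at 4 h and after, Eif5 is highest in OA mice at 24 h (11.5 to 12.8), and Eif5a lies between 6.32 and 7.65 in the mice that stand apart.

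These 3 calls lay close to the threshold, and on the authors' deposited quantile table Eif5 had 0.59 and did not pass. None of them remained without the mice of 1.5 h or of 24 h, or without any 1 of OA mouse 5 or 6 at 1 h, OA mouse 2 at 18 h, or OA mouse 2 or 6 at 24 h. With 1 of these single mice left out, 3.31% to 7.91% of all clones passed. Without the 7 mice that stand apart, 5 members rose and 4 fell, when 17.6% of all clones passed. Eif2s1 (0.43 ± 0.14, limma adjusted p = 0.0368) and Vars2 (-0.53 ± 0.15, limma adjusted p = 0.0203) were again among them, and Eif5 was not (0.66 ± 0.24, limma adjusted p = 0.0546). The others that rose were Yars (0.66 ± 0.21) and Sars (0.49 ± 0.14), the tyrosine and serine synthetases, Eif4ebp2 (0.66 ± 0.2), a repressor of the cap-binding protein, and the eIF3 subunit gene Eif3l (0.41 ± 0.13). The others that fell were Eif5a (-1.06 ± 0.22, limma adjusted p = 0.00408), the eIF3 subunit gene Eif3e (-0.58 ± 0.15) and Eef1b2 (-0.49 ± 0.14), part of the exchange factor of eEF1A. Members named outside the 14 genes fixed by rule, such as these, were chosen after their values were seen.

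Yars is given by mouse because its values at 24 h lay apart from those at 18 h. It lay at 7.39, 7.95, 8.2 and 8.45 in OA mice at 18 h, the first of these the mouse that stands apart, and at 8.75, 9.01, 9.14 and 9.26 at 24 h, against 7.21 to 8.61 in early OA mice. The 4 mice of 24 h were above every early OA mouse. In serum mice at 24 h it lay at 7.62 and 8.82, 1 of them within the OA range.

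**Figure D3:**
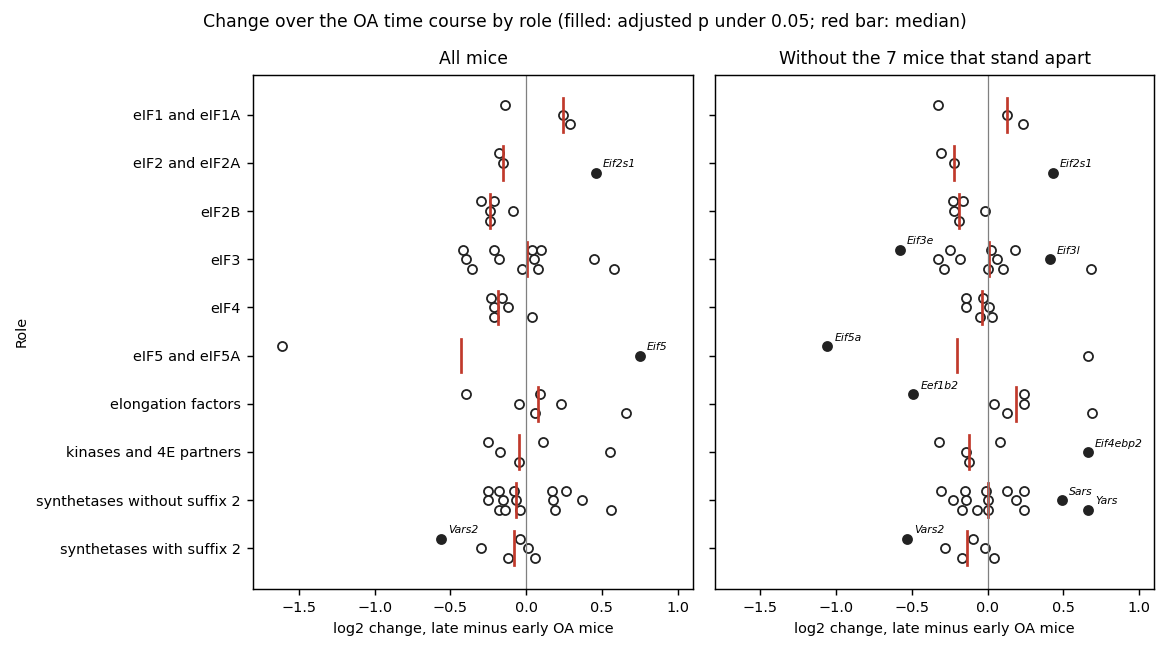
Log2 change of each member between late and early OA mice (horizontal axes), by role (vertical axis), with all mice on the left and without the 7 mice that stand apart on the right; filled points passed an adjusted p of 0.05 and red bars are medians. With all mice Eif2s1, Eif5 and Vars2 are filled, and without the 7 mice 9 members are, 5 to the right and 4 to the left of 0.

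By role, the late changes with all mice were spread around 0. The 5 eIF2B subunit genes all had negative values, from -0.3 to -0.09, and none passed. Of the 12 eIF3 subunit genes, 6 had positive and 6 had negative values, from -0.42 to 0.58, and none passed. The 6 eIF4 genes lay between -0.23 and 0.04 and the 6 genes named as elongation factors, Eef1e1 among them, between -0.4 and 0.66. None was called in either group. The 15 synthetase genes without the suffix 2 lay between -0.25 and 0.56, with a median of -0.07 and no call, and the 6 with it between -0.56 and 0.06, with Vars2 as the only call. The kinases and 4E partners (Eif2ak3, Eif2ak4, Eef2k, Eif4ebp2 and Eif4enif1) lay between -0.25 and 0.55, and none passed. The eIF2B genes without the 7 mice lay between -0.23 and -0.02, the eIF3 genes between -0.58 and 0.68 and the eIF4 genes between -0.14 and 0.03.

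The second comparison set middle OA mice against early OA mice. Here 2 members rose and 4 fell (9.52%), against 9.21% of all clones, 3.02% higher and 6.19% lower. The members called were thus as frequent as called clones in general, and the median change was -0.02, against 0.05 for all clones. The genes that fell were Eif5a, Eif4g1 and Eif4e2 of initiation and elongation and the mitochondrial synthetase gene Fars2, and the genes that rose were Eif4g2 and Eif2s1, given above.

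Eif5a lay at 6.7, 11.71, 12.18 and 12.41 in OA mice at 3 h and at 6.67, 7.5, 10.82 and 10.96 at 4 h, against 12.23 to 14.19, with a median of 12.62, in early OA mice. Of the middle mice, 7 of 8 were below every early mouse, and 3 of them, all among the 7 mice that stand apart, were far below the rest. Of these 3 mice, those at 6.7 and 6.67 lay below 7.06, the mean in middle OA mice of the lowest signal well above background. The mouse at 7.5 lay above it. With all mice, the depth of the fall thus rests partly on signals near background. Eif5a fell by 2.92 on the log2 scale (SE 0.72, 95% interval -4.39 to -1.44, limma adjusted p = 0.0141). Without the 7 mice it fell by 1.29 on the log2 scale (SE 0.24; 2.45-fold lower; limma adjusted p = 0.00471), the only member then called, when 2.92% of all clones passed. Its lowest values there were those of the 2 OA mice at 4 h that lie between the 7 mice and the rest. The mean was 11.62 ± 0.71 in these middle mice (SD, n = 5) and 12.76 ± 0.6 in early mice (SD, n = 10). Without the mice of 4 h the value was -2.04 (limma adjusted p = 0.45).

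Over all 6 times, leaving aside the 7 mice, Eif5a in OA mice ran from 12.23 to 14.19 at 1 h, 12.34 to 13.44 at 1.5 h, 11.71 to 12.41 at 3 h, 10.82 and 10.96 at 4 h, 11.82 to 12.45 at 18 h and 11.18 to 11.55 at 24 h. The 4 h pair were the lowest of these mice, and 24 h lay below 18 h with no overlap. Serum mice had 12.65 and 13.42 at 1 h, 12.73 at 1.5 h, 12.07 and 12.18 at 3 h, 11.53 at 18 h, and 11.62 and 12.03 at 24 h. In serum mice every late value was below every early value, while in OA mice, with all mice, 7 of 8 late values were. The share of clones so separated was not counted. The late change in serum mice was -2.17 ± 1.18 (limma adjusted p = 0.616) with all mice and -1.2 ± 0.38 (limma adjusted p = 0.297) without the 7.

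Eif4g1 and Eif4g2 are relatives with different work: the first is the scaffold that joins the cap-binding protein to eIF3, and the second lacks the site for that protein and serves cap-independent starts. Eif4g1 lay at 7.41, 8.53, 8.6 and 8.67 in OA mice at 3 h and at 6.81, 7.08, 7.38 and 7.44 at 4 h, against 7.7 to 9.46 in early OA mice. All 4 mice of 4 h were below every early mouse, including the 2 outside the 7 mice, which lay between them and the rest on the first component. Eif4g1 fell by 0.9 on the log2 scale (SE 0.27; limma adjusted p = 0.037), and it was above background on only 5 of 11 middle OA arrays, against 13 of 13 early ones, so the middle level rests largely on signals near background. Eif4g2 lay at 10.27 to 10.9 at 3 h and at 10.58, 10.97, 11.26 and 11.82 at 4 h, against 9.48 to 10.57 in early OA mice. Eif4g2 rose by 0.64 ± 0.17 (limma adjusted p = 0.0177), and its dimmer clone had 0.44 ± 0.19 (limma adjusted p = 0.136).

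Eif4e2 encodes a relative of the cap-binding protein eIF4E that mostly represses translation. It lay at 7.53, 7.78, 8.09 and 8.2 in OA mice at 3 h and at 6.89, 7.15, 7.4 and 7.43 at 4 h, against 7.76 to 8.33 in early OA mice. It fell by 0.43 on the log2 scale (SE 0.12; limma adjusted p = 0.0289). Here again the whole 4 h group lay below the early mice.

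Fars2 encodes the phenylalanine synthetase of mitochondria. It lay between 6.49 and 7.32 in the 8 middle OA mice, against 7.27 to 7.9 in the 10 early OA mice. None of the 11 middle OA arrays had Fars2 well above background, against 10 of 13 early OA arrays, so the middle level is only a bound. The bound was the higher of each array's lowest signal well above background and its Fars2 signal, with a mean of 7.06 in middle OA mice. Against it Fars2 was at least 1.46-fold lower in middle OA mice (limma adjusted p = 0.0116). Measured means were 6.92 in middle and 7.61 in early OA mice, each early time weighted equally.

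Without the 7 mice that stand apart, the calls of Eif4g1 (-0.71 ± 0.21, limma adjusted p = 0.0685), Eif4g2 (0.39 ± 0.18, limma adjusted p = 0.225), Eif4e2 (-0.27 ± 0.1, limma adjusted p = 0.156), Fars2 (-0.46, limma adjusted p = 0.082) and Eif2s1 (0.35 ± 0.16, limma adjusted p = 0.222) were lost. Leaving out OA mouse 7 at 3 h left 2 calls (Eif5a and Fars2), when 2.84% of all clones passed, and leaving out OA mouse 2 or 3 at 4 h gave 3, when 4.32% and 4.86% did. Without the mice of 4 h, or without those of 1.5 h, none of the 63 members was called between middle and early OA mice.

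Between late and middle OA mice no member passed with all mice, against 0.633% of all clones. An unadjusted p under 0.05 in limma was found for 13 of the 63 (20.6%), against 19.4% of all clones. Without the 7 mice, 1 member rose, Sars (0.98 ± 0.16, 1.97-fold, limma adjusted p = 0.00436), when 1.4% of all clones passed. Sars encodes the serine synthetase of the cytosol. It lay at 6.37, 8.56, 8.9 and 9.19 in OA mice at 18 h and at 8.57, 8.68, 8.72 and 8.72 at 24 h. In middle OA mice it lay at 6.46, 8.72, 8.81 and 9.05 at 3 h and at 6.31, 6.35, 6.65 and 6.82 at 4 h. Every mouse of 4 h was low, in both arms, with 5.91 and 6.51 in the serum mice. The low mice of 3 h and 18 h were those that stand apart. The 4 h values of OA mice lay below 7.06, the mean in middle OA mice of the lowest signal well above background. The 4 h level of Sars, and with it the 1.97-fold change, thus rests partly on signals near background. A second Sars clone had the same sign between middle and early OA mice, -0.59 ± 0.39 against -0.89 ± 0.33 for the brightest, neither of which passed. With OA mouse 2 at 18 h alone left out, 6 members passed (Eef1b2, Eif1a, Eif3e, Eif4g1, Eif4g2 and Sars), when 9.06% of all clones did.

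The core genes that did not pass are given for their levels. Eef2 lay between 9.28 and 11.64 in late OA mice, with a median of 11.5, against 10.76 to 12.09 and 11.18 in early OA mice, a change of -0.05 ± 0.36. Between middle and early OA mice Eef2 had -0.75 ± 0.36 (limma adjusted p = 0.177), and 2 of its 3 dimmer clones passed there, with -1.34 ± 0.43 (limma adjusted p = 0.0491) and -0.69 ± 0.22 (limma adjusted p = 0.0442). Eef1a1, the carrier of charged tRNA, had 0.66 between late and early OA mice, with 11.79 to 12.94 against 10.89 to 12.92. Eif4a1 had -0.21, and the 3 brightest synthetase genes had -0.15 (Aars), -0.04 (Kars) and 0.19 (Wars, the tryptophan synthetase, which interferon induces), none of them called.

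Clones of the same gene gave a check of these values. Of the 17 genes with several clones, all clones had the same sign of the late change in 9 and of the middle change in 12. Over all 88 clones, 8 passed between late and early OA mice (9.09%) and 9 between middle and early OA mice (10.2%). Besides the clones of Eif5, dimmer clones of Eif3a (1.16 ± 0.31), Eef1g (0.73 ± 0.21) and Dars (0.63 ± 0.16) passed between late and early OA mice while the brightest clone of the same gene had -0.21, 0.06 and 0.37 and did not. The clones of Eif3a and of Eef1g disagree in sign.

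**Figure D4:**
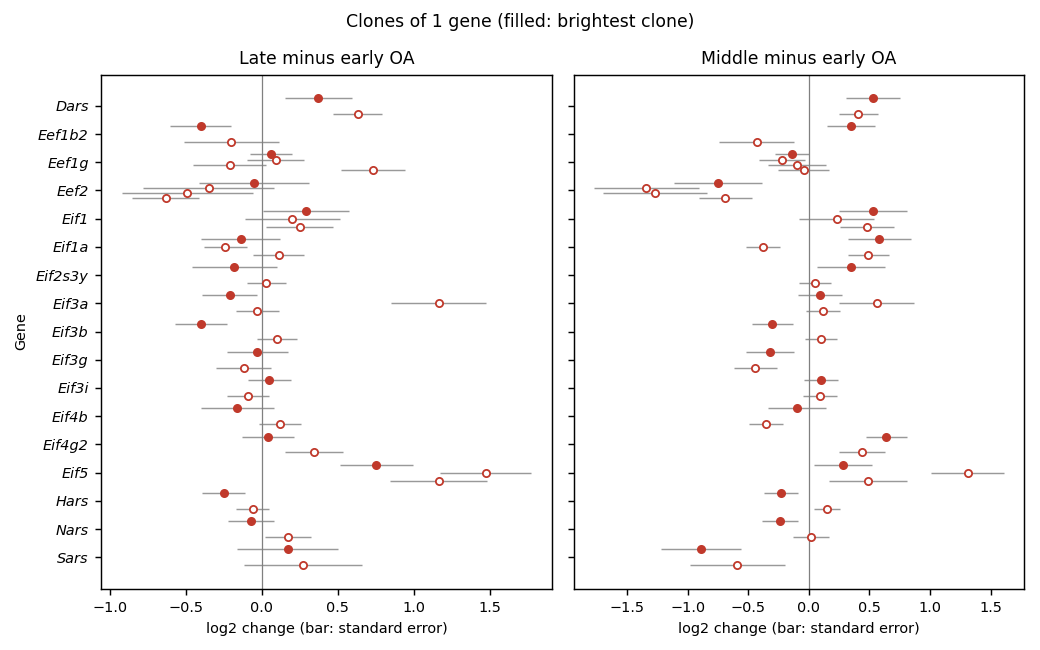
Log2 change of every clone of the 17 members with several clones, late minus early OA mice on the left and middle minus early OA mice on the right; filled points are the brightest clone and bars are standard errors. The 3 Eif5 clones lie right of 0 in both panels and the 4 Eef2 clones left of 0, while those of Eif3a and Eef1g are split on the left.

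The same interval was then examined in serum mice, and OA was set against serum at matched times. Between late and early serum mice no member passed, against 0.0258% of all clones, and 3 (4.76%) had an unadjusted p under 0.05, against 8.71% of all clones. Eif2s1 had 0.56 ± 0.23 there (limma adjusted p = 0.509), with 7.91, 8.27, 7.89 and 7.91 in late serum mice, against 7.42, 7.82 and 7.24 in early serum mice. These groups did not overlap, nor did those of Eef1b2, Eif2b3, Eif5a and Lars. Groups of 4 and 3 mice separate easily and the share over all clones was not counted, so this is not read as a trait of members. The difference between the late changes of the arms, OA minus serum, was -0.1 for Eif2s1 (95% interval -0.66 to 0.46), 0.49 for Eif5 (-0.46 to 1.43), -0.21 for Vars2 (-0.91 to 0.49) and 0.56 for Eif5a (-2.29 to 3.41). No member passed the test of this difference, nor did any clone (0%), and no member had an unadjusted p under 0.05, against 1.51% of all clones. With 3 early and 4 late serum mice these intervals are wide.

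Between OA and serum mice, averaged over the 6 times, no member passed and no clone did (0%), while 4 members (6.35%) had an unadjusted p under 0.05, against 3.44% of all clones. The members lay between -0.41 and 0.31. Eif5a had 0.25 (95% interval -0.89 to 1.39), Eef2 -0.04 (-0.61 to 0.53) and Eif2s1 0.07 (-0.16 to 0.29). The test of an OA effect that differs among times called none of the 63 and none of all clones (0%), with 2 members at an unadjusted p under 0.05, as had 3.26% of all clones.

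At the single times no member passed in limma, when 0%, 0.0129%, 0%, 0.0517%, 0% and 0.0129% of all clones did at 1, 1.5, 3, 4, 18 and 24 h (at 4 h, 0.0388% lower and 0.0129% higher). Members with an unadjusted p under 0.05 numbered 1, 0, 3, 6, 1 and 6 in that order, or 1.59%, 0%, 4.76%, 9.52%, 1.59% and 9.52%. Over all clones the shares were 1.33%, 1.76%, 3.36%, 13%, 1.23% and 6.96%. At 24 h Eif5 lay at 11.5, 11.6, 12.49 and 12.8 in OA mice, against 10.9 and 11.24 in serum mice (1.03, 95% interval 0.14 to 1.91, limma adjusted p = 0.679). Eef1a1 lay at 11.79, 12.15, 12.74 and 12.94 in OA mice at 24 h, against 10.99 and 11.39 in serum mice (1.22, 95% interval 0.17 to 2.26, limma adjusted p = 0.679). Gars lay at 7.04, 7.1, 7.46 and 7.65 in OA mice at 24 h, against 7.77 and 8.09 in serum mice (-0.61 ± 0.22, limma adjusted p = 0.647). At 18 h Gars lay at 7.38, 7.5, 7.7 and 7.86 in OA mice, against 6.9 and 7.45 in serum mice (0.44 ± 0.22, limma adjusted p = 1).

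At 4 h and at 18 h the largest member difference was that of Eif5a, 2.11 and 1.35. At 4 h the OA mice had 6.67, 7.5, 10.82 and 10.96, against 6.32 and 7.42 in serum mice, both of which stand apart. At 18 h OA mouse 2 and serum mouse 1, which stand apart, both had 7.65. The other OA mice then had 11.82 to 12.45, against 11.59 and 11.47 on the arrays of serum mouse 4. The 18 h difference thus rests largely on how the mice that stand apart fall between the arms. At 4 h, leaving out serum mouse 4 gave 5 called members (Dars, Eef1a1, Eif4enif1, Eif4g3 and Fars2), when 9.87% of all clones passed. At 24 h, leaving out serum mouse 4 gave 1 (Eif3f, above background on no array), when 0.439% did. In both cases the serum group is then 1 mouse, assumed to vary like the other groups. The members at 4 h could not be compared without the 7 mice, since no serum mouse remains.

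**Figure D5:**
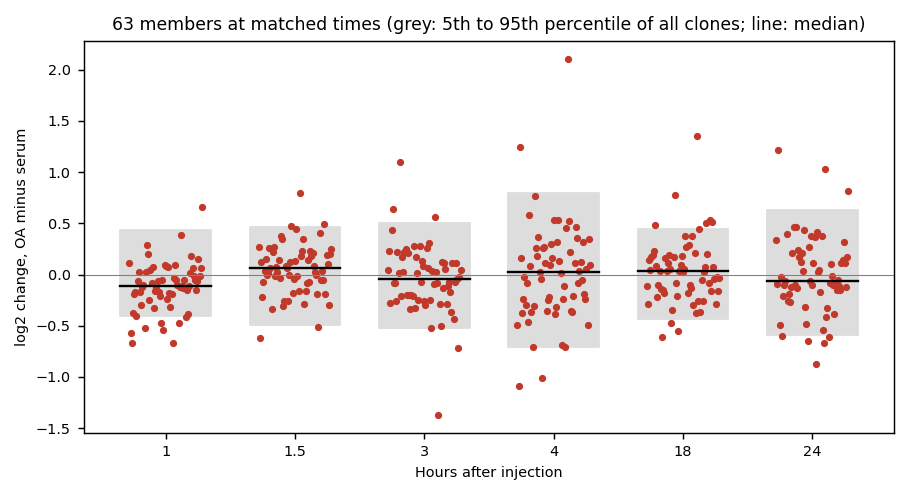
Log2 difference between OA and serum mice (vertical axis) of the 63 members at each time in hours after injection (horizontal axis); lines are member medians and grey boxes span the 5th to 95th percentile of all clones. The members lie mostly inside the boxes, with Eif5a highest at 4 h (2.11) and at 18 h (1.35), times at which mice of both arms stand apart.

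Other genes of translation and its control, in short lists made for this comparison, gave 1 call or none per list between late and early OA mice, apart from the ATF4 list with 2. In lists this short 1 gene is a large share, against 8.23% of all clones. Of 7 termination and recycling genes 1 rose, Abce1, which splits the ribosome after termination (0.56 ± 0.13, limma adjusted p = 0.00759). Of 5 further genes of synthetases and their complex 1 rose, Farsb (0.49 ± 0.12, limma adjusted p = 0.0134), which encodes a subunit of the cytosolic counterpart of Fars2. Of 8 poly(A)-binding and cap partner genes 1 rose, Dhps (0.65 ± 0.19, limma adjusted p = 0.0333), whose enzyme begins the hypusine modification that eIF5A needs. Of 4 mitochondrial factor genes 1 rose, Tsfm (0.89 ± 0.27, limma adjusted p = 0.0419). All 4 of these genes also passed without the 7 mice (Abce1 0.58, Farsb 0.55, Dhps 0.79 and Tsfm 0.85), as did Pabpc1 (0.89 ± 0.27), the poly(A)-binding protein gene, then. Dhps and Eif5a had opposite signs in the same mice, 0.65 and -1.61, the second not called with all mice (limma adjusted p = 0.148).

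Of 21 genes of the ATF4 and integrated stress response list, 1 rose (Pck2, 0.58 ± 0.16, above background on 17 arrays) and 1 fell (Trib3, -0.48 ± 0.13, on 3 arrays) between late and early OA mice, with a median of 0.07. Between middle and early OA mice 2 fell, the factor gene Atf4 itself (-0.49 ± 0.16, limma adjusted p = 0.0435) and the amino acid transporter gene Slc3a2 (-0.68 ± 0.19, limma adjusted p = 0.026), with a median of -0.03. Neither passed without the 7 mice (Atf4 -0.48 ± 0.18 and Slc3a2 -0.37 ± 0.13), while Pck2 and Trib3 did between late and early OA mice. The ATF4 element holders Aars, Gars and Tars were not called in either comparison. Of 10 mTOR and MNK genes none passed between late and early OA mice, and Mknk2, a kinase of the cap-binding protein, fell between middle and early OA mice (-2.46 ± 0.67, limma adjusted p = 0.0227). It lay between 6.88 and 7.64 in the 3 middle OA mice that stand apart, and its change without the 7 mice was -1.11 ± 0.25 (limma adjusted p = 0.0175). In the termination list, Gspt1, a release factor gene, rose between middle and early OA mice (0.56 ± 0.16, limma adjusted p = 0.0292), but not without the 7 mice (0.38 ± 0.14, limma adjusted p = 0.14).

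Markers of other blood cells moved over the same interval. Of all clones, 8.23% passed there with all mice and 17.6% without the 7 mice. Of 16 erythroid genes 5 rose between late and early OA mice (Alas2, Mpp1, Trim10, Rhd and Car1, by 0.57 to 1.67) and none fell, with Rhd above background on 4 arrays and Car1 on 1. Their mean level per mouse lay between 8.7 and 9.8 in late OA mice, against 8.36 to 9.08 in early OA mice, and between 8.91 and 9.51 in late serum mice, against 8.53 to 9.01 in early serum mice. Rhag was above background on no array. Of 10 neutrophil genes 3 fell (Il1r2, Clec4d and Ltf, by 0.9 to 1.76 on the log2 scale), with a mean level of 7.82 to 9.48 in late OA mice, against 8.3 to 9.8 in early OA mice. In that list 8 genes had negative and 2 had positive values, Chil3 (0.82 ± 0.36, limma adjusted p = 0.147) and Prtn3 (0.04 ± 0.13). Of 15 T-cell genes 2 rose and 2 fell, 1 of 9 B-cell and 1 of 5 platelet genes fell, and no monocyte, NK or lung gene passed. Between middle and early OA mice, where 9.21% of all clones passed, 2 neutrophil, 2 B-cell and 1 T-cell gene fell. Of 7 NK genes 1 rose and 1 fell there. Without the 7 mice, 6 erythroid genes rose and 5 neutrophil genes fell between late and early OA mice, and 1 lung gene, Epcam, passed (0.58 ± 0.18). The part of these shifts in the members' changes was not tested.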

How the data were processed

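The authors deposited 1 spot intensity per spot and array on a linear scale, and a log2 table, quantile normalised across arrays and not adjusted to serum, per the file headers. The headers of the array files name 5 of their 6 columns, so the signal column was identified from its values. A second deposited log2 table holds OA arrays as ratios to serum of the same time, except that 1 of 35 OA arrays (OA 3 h mouse 3) matched serum of 1.5 h. Blood RNA was purified by kit, amplified linearly and labelled with 33P, per the labels' protocols, which also name lung where the tissue label gives PBMC. How spots were quantified is not stated.

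From the intensities, 2213 non-clone spots were left out, and 7771 clone spots were log2 transformed and quantile normalised with no background correction, which compresses low signals. Spots of 7739 clones and both arrays of a mouse were averaged. Names were updated through RefSeq (GRCm38.p6), by symbol for 6430 clones and by synonym for 1039. A clone was well above background where it exceeded the median of the empty spots by 2.6 robust SDs. Changes were tested with limma 3.58.1 in R 4.3.3 over 12 group means with 1 shared spread, with Benjamini-Hochberg adjustment over all clones at 0.05, both times of a stage weighted equally. The code was tested on simulated data. The members, lists, core genes and tests were chosen with earlier results of these data known. Values are given for called members, for core genes (Eef1a1, Eef2, Eif4a1, Eif4g2, Eif2s1 and Eif5a), for the 3 brightest synthetases and for called genes of the other lists. Eif4e, Eif4ebp1, Eif2ak1 and Eif6 were not analysed here.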

Additional observations from a re-analysis of the deposited data

Results flagged for a closer look

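Of 84 groups of 4 to 6 OA mice tested over the 14 genes named by rule, 9 held a mouse far from the rest of its group, where chance gives about 1 in 20. In 4 of them the mouse was one of the 7 that stand apart: Eif5a was 6.7 in OA mouse 7 at 3 h, with the nearest mouse at 11.71, and 7.65 in OA mouse 2 at 18 h, with the nearest at 11.82. Eef2 was 9.28 in that mouse at 18 h, with the nearest at 11.47, and Eif4g1 was 7.41 in OA mouse 7 at 3 h, with the nearest at 8.53. In the other 5 the mouse does not stand apart. Eif5a was 13.44 in OA mouse 5 at 1.5 h (nearest 12.68), and its arrays differed there, at 14.14 and 12.75. Eif5 was 12.12 in OA mouse 5 at 4 h (nearest 10.81), a level that other OA mice exceeded only at 24 h, and 9.95 in OA mouse 2 at 1.5 h (nearest 10.71). Eif4g1 was 9.08 in OA mouse 5 at 24 h (nearest 8.48), and Eif4g2 was 10.53 in OA mouse 5 at 1 h (nearest 10.18).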

How the results depend on the processing

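Between late and early OA mice, where 3 members were called, the count was 1 with the mouse number as a replicate block (Eif2s1), 1 without 1 h, 0 without 1.5 h, 6 without 18 h, 0 without 24 h and 9 without the 7 mice that stand apart, and 0 to 4 with each mouse left out in turn. It was 1 without OA mouse 2 or 4 at 3 h, mouse 3 or 5 at 18 h, mouse 3 at 24 h, any mouse of 2, 3, 5, 6, 7 and 8 at 1.5 h, or serum mouse 1 or 5 at 3 h. In these fits 4.79% to 8.76% of all clones passed. All clones called numbered 637, against 1 without 1.5 h, 8 without 24 h and 1363 without the 7 mice. Between middle and early OA mice, where 6 members were called, it was 3 without 1 h, 0 without 1.5 h, 0 without 4 h, and 2 to 7 with each mouse left out. It was 1 without the 7 mice, when 2.92% of all clones passed. Between late and middle OA mice, where none was called, it was 7 without 18 h and 0 to 6 with each mouse left out. It was 1 without the 7 mice, when 1.4% of all clones passed, and 6 without OA mouse 2 at 18 h, when 9.06% did. It was 3 without OA mouse 5 and 1 without OA mouse 6 at 4 h, when 2.82% and 0.607% of all clones passed. A count with no share of all clones beside it, as without 1 h or 18 h or in a range over mice left out, is not read as a trait of members. OA against serum gave 0 to 5 at 4 h and 0 to 1 at 24 h with each mouse left out. Eif5 between late and early OA mice was -0.11 without 24 h. Median scaling, the deposited quantile table, clones above background on most arrays (4055 clones, 45 members), all arrays with a mouse correlation of 0.4959 and the mean over the clones of a gene (6040 genes) kept each count within 1.5 times of its value. So did placing OA mouse 3 of 3 h at 1.5 h, which, like leaving out 4 h, was chosen after seeing the data. Mouse numbers were checked as pairs: of 76 pairs of mice with 1 number in different groups, 19 deviated together with r over 0.1. Their median r was -0.000599, against 0.00585 for pairs with different numbers, which gave no sign of pairing. The check cannot exclude pairing, since r of single pairs ran from -0.561 to 0.633. In no other comparison did the block move a count by over 1.5 times. OA against serum at 4 h could not be fitted without the 7 mice. The cause of these shifts was not tested. Dim members, 18 of 63 above background on a minority of the arrays, have changes that are compressed by the unsubtracted background.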
